A study of Homo sapiens with 6 samples.

Results

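EWS-FLI1, the fusion protein of Ewing sarcoma, acts through chromatin complexes that it recruits, and the transcripts of 9 of these chromatin partners are described here. They were taken by gene symbol. EZH2, SUZ12 and EED form the core of polycomb repressive complex 2 (PRC2), KDM1A, HDAC1, HDAC2 and CHD4 belong to the LSD1 and NuRD corepressors, and SMARCC1 and ARID1A are subunits of the BAF remodeller. All 9 symbols were found, each as 1 of the 27234 gene rows of the deposited table, and all 9 passed the filter on low counts that left 9420 genes for testing. The cells were A673, an established line from an Ewing sarcoma, and carry EWS-FLI1. Transfection was with siRNA against FLI1 (siFLI1, 3 libraries) or with scrambled siRNA (siControl, 3 libraries), 48 h before RNA was isolated. Both groups have the fusion gene, and both are from this 1 cell line. Levels are CPM, table counts per library total after scaling by the trimmed mean of M values (TMM), from libraries that read the 3' ends of polyadenylated RNA. The log2FC is the log2 fold change, siFLI1 over siControl.

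EWS-FLI1 joins the N-terminal part of EWSR1 to the ETS DNA-binding domain of FLI1 and binds GGAA sequences, both single sites and microsatellite repeats. It is known to bring the BAF complex to GGAA repeats, where genes become active, and to repress other genes, LOX and TGFBR2 among them, with LSD1 and NuRD. PRC2 places the repressive methyl mark on histone H3 lysine 27, LSD1 removes methyl groups from histone H3 lysine 4, class I HDACs remove acetyl groups, and CHD4 and BAF move nucleosomes with the energy of ATP. EZH2 has been described as a gene that EWS-FLI1 induces in Ewing sarcoma, and in many cell types it is also linked to the cell cycle through E2F factors.

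Total table counts ran from 417145 to 1893606 in the siFLI1 libraries and from 1248395 to 1790051 in the siControl libraries. For the lowest, siFLI1 replicate 3, the assigned counts made up 10.1% of the header total, for the other 5 between 41.2% and 61.0%. This library stood apart on the first principal component. On the second it was at −18.9, among the siControl libraries (−28.6 to −12.9), with the other siFLI1 libraries at 36.4 and 37.4. Replicate 1 of siControl had a TMM factor of 1.23, against 0.94 to 0.99 elsewhere. It was at −42.7 on the third component, where the other siControl libraries were at 24.5 and 30.7. In siFLI1 replicate 3 the 9 partners together had 190 counts, against 704 to 1210 in the other 5. FLI1 itself was at 19.0, 42.5 and 24.1 CPM in the siFLI1 libraries and at 63.0, 69.1 and 62.4 CPM in the siControl libraries, with a log2FC of −1.16 ± 0.36 (SE; adjusted p = 0.17, edgeR quasi-likelihood test). Reads at the 3' end do not tell the fusion transcript from unfused FLI1. Of 9 markers of Ewing sarcoma cells, 8 were tested and all 8 had a log2FC below 0, against 49.6% of all tested genes. Of these 8, NR0B1 passed the threshold as lower, as did 0.117% of all tested genes. CD99, the membrane glycoprotein that marks these tumours, averaged 83.0 CPM in siFLI1 and 101 CPM in siControl. None of 13 markers of blood, endothelial or epithelial cells passed the filter on low counts, and CD3E, KRT5 and KRT14 were at 0 in all 6 libraries. PTPRC had 16 counts (42.8 CPM) in siFLI1 replicate 3, 6 counts (5.13 CPM) in siControl replicate 3 and 0 in the other libraries.

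The promoters of EZH2 and SUZ12 are shown because both partners belong to PRC2, and the libraries of the groups were apart for EZH2 and overlapped for SUZ12. Sequences are from RefSeq on GRCh38.p14 and run 5′ to 3′ along the gene's strand from 250 bases before the RefSeq start, for 192 bases, which is as far as they stay outside the EZH2 transcript of the table. Capitals mark GGAA, the core of ETS sites, and CCAAT, a common promoter element, each on either strand (as TTCC and ATTGG on the other strand). No match of one overlaps a match of the other.
EZH2, minus strand, chr7:148884350-148884541: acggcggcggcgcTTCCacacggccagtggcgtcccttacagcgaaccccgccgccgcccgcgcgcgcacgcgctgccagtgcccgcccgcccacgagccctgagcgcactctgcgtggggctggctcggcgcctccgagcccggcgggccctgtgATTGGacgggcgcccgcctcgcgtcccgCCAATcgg
SUZ12, plus strand, chr17:31936757-31936948: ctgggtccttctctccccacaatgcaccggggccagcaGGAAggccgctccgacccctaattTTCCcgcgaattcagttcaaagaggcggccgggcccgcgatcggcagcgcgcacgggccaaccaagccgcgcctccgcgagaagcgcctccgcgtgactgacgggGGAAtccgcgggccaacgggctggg

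The EZH2 stretch shown held 1 GGAA and 2 CCAAT matches, and the SUZ12 stretch held 3 GGAA and 0 CCAAT matches. RefSeq gives EZH2 a second window, chr7:148883544-148883735, which lies inside the EZH2 row of the table and held 1 GGAA and 0 CCAAT matches. Over 35116 RefSeq promoter windows cut to the same 192 bases, 87.2% held a GGAA and 26.2% a CCAAT. The unit of the microsatellites is a single GGAA. The doubled core GGAAGGAA was in 2.31% of those windows and in 0 of the 9 windows found for 8 of the partners. ARID1A was the partner with 0 GGAA matches and EED the one with the most, 7, in a window that lies inside the EED row of the table. These are matches of letters in short windows, and distal elements were not searched.

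None of the 9 partner transcripts passed the threshold when FLI1 was targeted. Of the 9420 genes tested, 1.45% passed an adjusted p of 0.05 (edgeR quasi-likelihood test, Benjamini-Hochberg over all genes), 1.34% higher and 0.117% lower in siFLI1, and 0 of the 9 partners were among them. DESeq2 and limma-voom also called 0 of the 9. At an unadjusted p below 0.05, 1 of the 9, EZH2, was lower in edgeR, where 4.13% of all genes were lower and 6.62% higher by that rule, and each of those other tools also had 1 of the 9 below it. The log2FCs of the partners ran from −0.73 for EZH2 to 0.41 for EED, with a median of −0.09, against a median of 0.01 over all tested genes. The median absolute log2 change was 0.24 for the 9 partners and 0.35 over all tested genes. The plot of levels by library gives every value behind these comparisons.

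**Figure D1:**
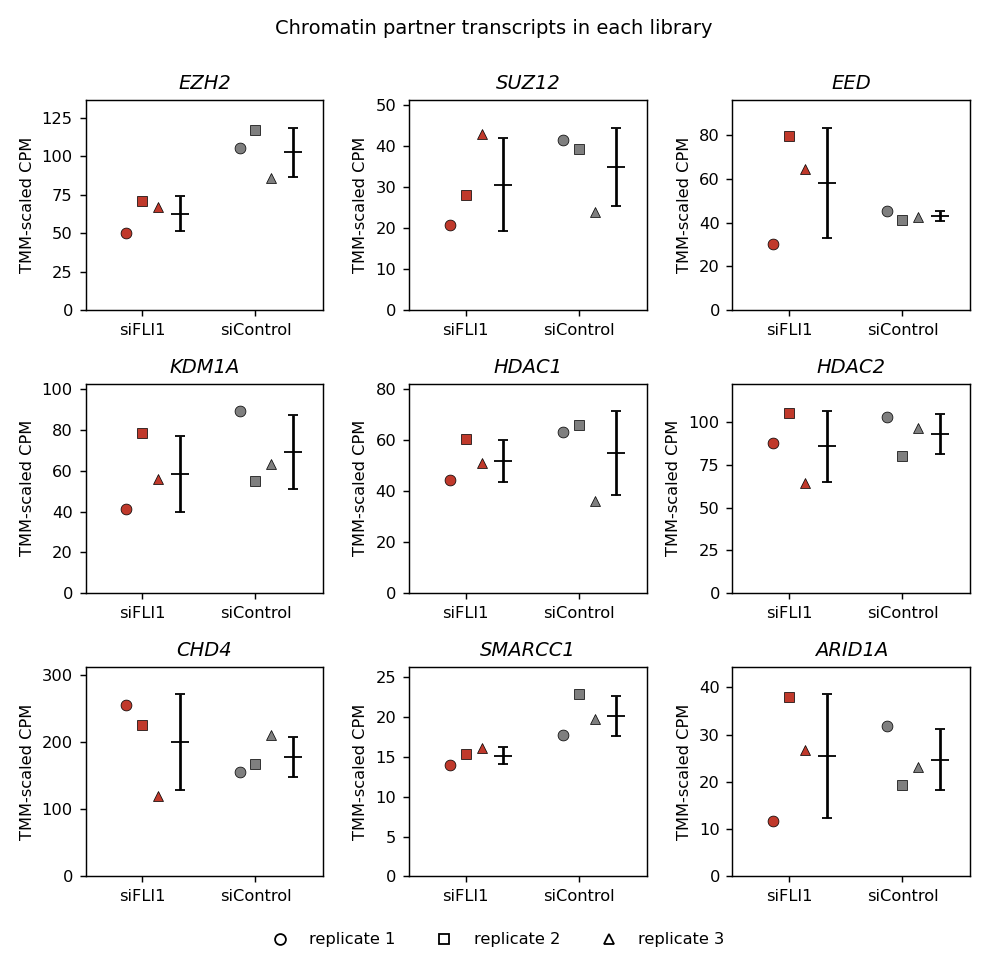
Level of each of the 9 partner transcripts in TMM-scaled CPM (vertical axis, from 0), in siFLI1 (red, left) and siControl (grey, right). Circles, squares and triangles are replicates 1, 2 and 3, and the bar beside them is the mean with its SD (n = 3). EZH2 and SMARCC1 have all siFLI1 libraries below all siControl libraries, and the groups overlap for the other 7.

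EZH2, the catalytic subunit of PRC2 (row NM_004456, chromosome 7, 148807372 to 148884349, minus strand, hg38), had the largest difference of the 9 in either direction. Replicates 1, 2 and 3 of siFLI1 gave 49.8, 71.1 and 66.9 CPM, on 89, 107 and 25 counts. Replicates 1, 2 and 3 of siControl gave 105, 117 and 85.5 CPM, on 195, 200 and 100 counts. The groups did not overlap, with siFLI1 below. This order was seen in 7.71% of all tested genes and in 2 of the 9 partners, and the opposite order in 8.93% of genes and 0 partners. The mean was 62.6 ± 11.3 CPM in siFLI1 and 102.5 ± 15.97 CPM in siControl (SD, n = 3), so that siFLI1 was at 61.0% of siControl. The log2FC was −0.73 ± 0.28 (SE; 95% interval −1.33 to −0.12, for this gene alone), and it did not pass over all genes (edgeR adjusted p = 0.337, unadjusted p = 0.0217). By exact permutation of the 6 log2 levels (two-sided) p was 0.1, and with 3 libraries a group it cannot be smaller. In size it was larger than the change of 80.4% of the tested genes. Its direction held in 14 alternative fits, with values from −0.85 to −0.57 and adjusted p from 0.277 to 0.612. The unadjusted p was 0.104 without siFLI1 replicate 1 and 0.0767 without siControl replicate 2.

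SUZ12, which holds PRC2 together, and EED, which binds the methyl mark, had overlapping groups. SUZ12 (chromosome 17, 31937010 to 32001045, plus strand) was at 20.7, 27.9 and 42.8 CPM in siFLI1 and at 41.5, 39.2 and 23.9 CPM in siControl. The highest of the 6 values was siFLI1 replicate 3 and the groups overlapped, with a log2FC of −0.29 ± 0.40 (SE; edgeR adjusted p = 0.868). It was −0.53 without that library and −0.048 without siFLI1 replicate 1. The pseudogene SUZ12P1 had 42 counts in all and was not tested. Whether any reads of SUZ12 were assigned to it was not examined. EED (chromosome 11, 86244384 to 86278810, plus strand) was at 30.2, 79.7 and 64.3 CPM in siFLI1 and at 45.2, 41.0 and 42.7 CPM in siControl. Here siFLI1 replicate 1 was the lowest library and the other 2 siFLI1 libraries the highest, and the SD was 25.3 CPM in the siFLI1 group against 2.13 CPM in the siControl group. The log2FC of 0.41 ± 0.37 (SE; 95% interval −0.37 to 1.19) had an adjusted p of 0.767 in edgeR. Without siFLI1 replicate 1 it was 0.76, with an unadjusted p of 0.0439 and an adjusted p of 0.498, and without siFLI1 replicate 2 it was 0.039.

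Among the corepressor enzymes, KDM1A, which encodes the demethylase LSD1 (chromosome 1, 23019448 to 23083691, plus strand), was at 41.4, 78.4 and 56.2 CPM in siFLI1 and at 89.4, 55.0 and 63.2 CPM in siControl. The groups overlapped, and the log2FC was −0.24 ± 0.33 (SE; 95% interval −0.94 to 0.46; edgeR adjusted p = 0.867). It was −0.54 without siFLI1 replicate 2 and −0.011 without siFLI1 replicate 1. The deacetylase HDAC1 (chromosome 1, 32292107 to 32333623, plus strand) was at 44.2, 60.5 and 50.9 CPM in siFLI1 and at 63.0, 65.6 and 35.9 CPM in siControl. Its siControl replicate 3 was below every siFLI1 library while the other 2 siControl libraries were above them, and the log2FC was −0.09 ± 0.33 (SE; adjusted p = 0.951). HDAC2, the other deacetylase of NuRD (chromosome 6, 113936156 to 113971195, minus strand), was at 87.8, 105.6 and 64.3 CPM in siFLI1 and at 102.9, 80.2 and 96.6 CPM in siControl. The siFLI1 libraries held both the highest and the lowest value, and the log2FC was −0.09 ± 0.28 (SE; adjusted p = 0.943). CHD4, the ATPase of NuRD (chromosome 12, 6570082 to 6607433, minus strand), was at 256, 226 and 120.5 CPM in siFLI1 and at 155, 167 and 211 CPM in siControl. Replicates 1 and 2 of siFLI1 were the highest of the 6 and siFLI1 replicate 3, with 45 counts, the lowest. The log2FC of CHD4 was 0.20 ± 0.29 (SE; edgeR adjusted p = 0.87), and it was −0.0080 without siFLI1 replicate 1.

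The BAF core subunit SMARCC1 (chromosome 3, 47585888 to 47781915, minus strand), a scaffold of the remodeller, was at 13.98, 15.3 and 16.1 CPM in siFLI1 and at 17.8, 22.8 and 19.7 CPM in siControl. All siFLI1 libraries were lower, but on few reads, 25, 23 and 6 counts in siFLI1 and 33, 39 and 23 counts in siControl. Its log2FC of −0.42 ± 0.44 (SE; 95% interval −1.36 to 0.51) had an adjusted p of 0.816 in edgeR, and exact permutation (two-sided) gave p = 0.1. ARID1A, the DNA-binding subunit that defines canonical BAF (chromosome 1, 26696031 to 26782110, plus strand), was at 11.7, 37.9 and 26.8 CPM in siFLI1 and at 31.8, 19.3 and 23.1 CPM in siControl. The siFLI1 libraries again held both extremes. The log2FC of ARID1A was 0.02 ± 0.47 (SE; edgeR adjusted p = 0.994).

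The 95% intervals give the precision behind each partner's value. For KDM1A, HDAC1, HDAC2 and CHD4 the 95% interval, taken for each gene alone, lay within a 2-fold change in both directions. For EZH2, SUZ12 and SMARCC1 it reached past a 2-fold fall, and for EED and ARID1A past a 2-fold rise. Of the 9 partners, EZH2 alone had an interval that left out 0. LOX and TGFBR2, known as genes that EWS-FLI1 represses with LSD1 and NuRD, are given beside them from the same fit. They ranked 7 and 111 by p among the 9420 tested genes, whose median absolute log2 change was 0.35. They are therefore not a measure of the usual response. TGFBR2, a TGF-beta receptor, averaged 132 ± 44.3 CPM in siFLI1 and 49.5 ± 5.33 CPM in siControl (SD, n = 3), with a log2FC of 1.37 ± 0.30 (SE; edgeR adjusted p = 0.0353). In the 6 fits without 1 library its log2FC ran from 1.10 to 1.55, but the call was lost in each, with adjusted p from 0.0652 to 0.178. The call was also lost under scaling by total counts (adjusted p = 0.0888), with the replicate block (0.0881) and without both siFLI1 replicate 3 and siControl replicate 1 (0.0763). LOX, a collagen crosslinking enzyme, was higher by 3.57 on the same scale and stayed past the threshold in every alternative.

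**Figure D2:**
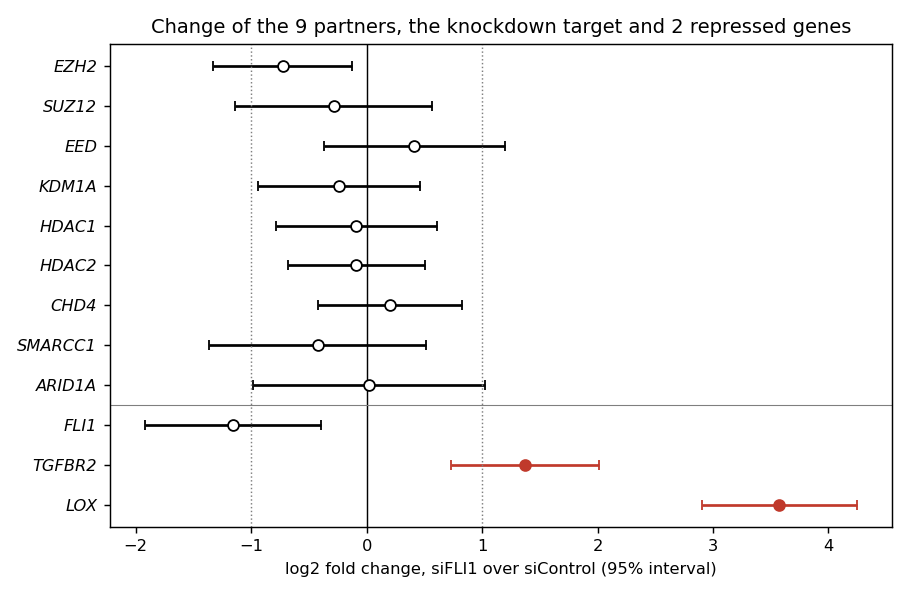
Log2 fold change of siFLI1 over siControl (horizontal axis) with its 95% interval for the 9 partners and, under the line, for FLI1, TGFBR2 and LOX. Filled red points passed an adjusted p of 0.05, open points did not, and dotted lines mark a 2-fold change. The 9 partners lie between −0.73 and 0.41, and LOX at 3.57.

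EZH2 was read beside a list of 16 genes of S phase and mitosis, since its expression follows the cell cycle in many cells. All 16 were tested and 0 passed the threshold, against 1.45% of all tested genes. The log2FC was below 0 for all 16 (median −0.43), where 49.6% of all tested genes were negative. At an unadjusted p below 0.05, 3 were lower and 0 higher (edgeR), against 4.13% and 6.62% of all tested genes. CDK1, the mitotic kinase, averaged 197 ± 8.29 CPM in siFLI1 and 304 ± 39.9 CPM in siControl (SD, n = 3), with a log2FC of −0.62 ± 0.24 (SE; adjusted p = 0.336). MCM4, a subunit of the replicative helicase, was at −1.06 ± 0.27 (adjusted p = 0.0763), and MCM5 at −1.08 ± 0.50 (adjusted p = 0.462) with 1 count in siFLI1 replicate 3. RRM2, a ribonucleotide reductase subunit and the most abundant of the list, was at −0.56 ± 0.37 (adjusted p = 0.652). The summed level of the 16 genes ran from 2303 to 3425 CPM in siFLI1 and from 3553 to 4650 CPM in siControl, without overlap. Singly, 3 of the 16 had all siFLI1 libraries below all siControl libraries, against 7.71% of all tested genes. The log2 ratio of EZH2 counts to the summed counts of the 16 averaged −5.52 ± 0.52 in siFLI1 and −5.31 ± 0.42 in siControl (SD, n = 3). That is a difference of −0.22, and the groups overlapped (two-sided exact permutation p = 0.6, where 0.1 is the smallest p possible). This ratio was chosen after the data were seen, and its sum leans on the most abundant genes. RRM2 alone was at 1492, 1168 and 570 CPM in siFLI1 and at 1543, 1160 and 2063 CPM in siControl. The ratio therefore does not weigh the 16 genes equally. The part of cycling in the EZH2 values was not tested. In bulk RNA, fewer cells that express a gene and less RNA per cell cannot be told apart. The tested genes whose log2 levels ran most like EZH2 over the 6 libraries were NDUFAF4, an assembly factor of respiratory complex I (Pearson r = 0.98), TBC1D15, a Rab GTPase-activating protein (0.98), and MED29, a Mediator subunit (0.97). These 6 points share the group difference and the library depths, and the highest of 9420 such values are given only as a description.

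Other genes listed with the partners' complexes, together with PRC1 genes, BET readers, enhancer enzymes and H3K27 demethylases, gave no call either. Of 100 listed genes outside the 9 partners, 75 passed the filter, and 0 of these passed the threshold in edgeR, DESeq2 or limma-voom. At an unadjusted p below 0.05, 1 of the 75 was higher and 0 lower in edgeR, against 6.62% and 4.13% of all tested genes. DESeq2 and limma-voom gave 1 and 3 of the 75 at that level. Their median log2FC was −0.05 and the values ran from −1.03 to 1.27, the highest being RBBP5. All siFLI1 libraries were below all siControl libraries for 7 of the 75 and above them for 1, orders seen in 7.71% and 8.93% of all tested genes. The plot of the chromatin groups shows the single genes.

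**Figure D3:**
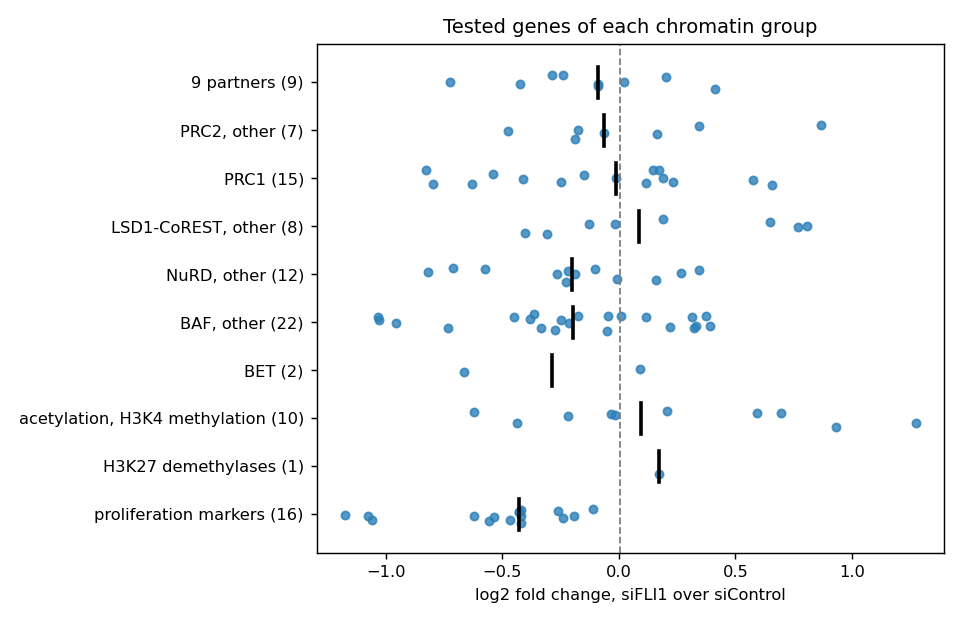
Log2 fold change of siFLI1 over siControl (horizontal axis) for the tested genes of each group, with their number in brackets. Each point is a gene, black bars are group medians and the dashed line is the median of all tested genes. The 16 proliferation markers all lie below 0, and the 9 partners have a median of −0.09.

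Of 10 further PRC2 genes, 7 were tested and had a median log2FC of −0.06. PHF19, a polycomb-like subunit that links PRC2 to chromatin, was the 1 gene of these 7 with all siFLI1 libraries below all siControl libraries, at 36.3, 34.5 and 42.8 CPM in siFLI1 and 55.5, 43.9 and 56.4 CPM in siControl, an order that 7.71% of all tested genes had. Its log2FC was −0.48 ± 0.31 (SE; edgeR adjusted p = 0.652). The related PHF1 was at 0.87 ± 0.55 (adjusted p = 0.64) and the histone chaperone RBBP7, shared with NuRD, at 0.35 ± 0.32 (adjusted p = 0.781). EZH1, the alternative catalytic subunit, was below the filter, with 6, 2 and 4 counts in siFLI1 and 5, 35 and 1 counts in siControl. Of 20 PRC1 genes, 15 were tested, with a median of −0.01. BMI1, a RING finger subunit of PRC1, averaged 26.1 ± 6.70 CPM in siFLI1 and 40.9 ± 9.79 CPM in siControl (SD, n = 3), with −0.63 ± 0.37 (SE; adjusted p = 0.603). It alone of the 15 had all siFLI1 libraries below all siControl libraries, an order that 7.71% of all tested genes had. YAF2, of variant PRC1, was at −0.80 ± 0.38 (adjusted p = 0.475), the demethylase KDM2B at −0.83 ± 0.60 (adjusted p = 0.694) and PCGF3 at 0.12 ± 0.31 (adjusted p = 0.934).

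Of 10 further genes listed with LSD1 and CoREST, KDM1B among them, 8 were tested, with a median log2FC of 0.09. Of 14 further NuRD and deacetylase genes 12 were tested, with a median of −0.20. RCOR1, the CoREST scaffold, averaged 144 ± 21.6 CPM in siFLI1 and 158 ± 21.3 CPM in siControl (SD, n = 3), with −0.13 ± 0.25 (SE; edgeR adjusted p = 0.905). Its paralog RCOR3 was at 0.65 ± 0.34 (adjusted p = 0.535) and ZMYM3 at 0.81 ± 0.49 (adjusted p = 0.621). GSE1 was at 0.77 ± 0.45 (adjusted p = 0.604). It alone of the 8 had all siFLI1 libraries above all siControl libraries, an order that 8.93% of all tested genes had. Of the NuRD scaffold genes, MTA1 was at −0.82 ± 0.59 (adjusted p = 0.687), a value set by siControl replicate 1 with 86 counts, and it was 0.14 without that library. MTA2 was at −0.71 ± 0.58 (adjusted p = 0.745), and the deacetylase HDAC3 at −0.58 ± 0.46 (adjusted p = 0.739).

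Of 28 further BAF genes, 22 were tested, with a median log2FC of −0.20. BRD9, which defines the non-canonical GBAF form, averaged 10.7 ± 5.43 CPM in siFLI1 and 23.9 ± 6.89 CPM in siControl (SD, n = 3), with −1.03 ± 0.49 (SE; edgeR adjusted p = 0.481). SMARCB1, a core subunit lost in rhabdoid tumours, was at −1.03 ± 0.55 (adjusted p = 0.548) on 17, 11 and 1 counts in siFLI1 and 25, 21 and 23 counts in siControl. BCL7B was at −0.73 ± 0.37 (adjusted p = 0.522). These 3 of the 22 BAF genes had all siFLI1 libraries below all siControl libraries, against 7.71% of all tested genes, and each missed the threshold in all 14 alternatives. ACTL6A, an actin-related subunit, averaged 381 ± 107 CPM in siFLI1 and 324 ± 148 CPM in siControl, and its log2FC was 0.22 ± 0.33 (adjusted p = 0.876). The ATPase SMARCA4 was at 0.12 ± 0.24 (adjusted p = 0.914).

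Of the BET readers, which bind acetylated histones, BRD2 was at a log2FC of −0.66 ± 0.44 (SE; edgeR adjusted p = 0.652) and BRD3 at 0.09 ± 0.48 (adjusted p = 0.969), and for both genes the groups overlapped. Of 14 acetyltransferase and H3K4 methyltransferase genes, 10 were tested, with a median of 0.09. DPY30, a core subunit of those methyltransferases, was the 1 gene of the 75 with an unadjusted p below 0.05. It averaged 275 ± 62.0 CPM in siFLI1 and 181 ± 37.6 CPM in siControl (SD, n = 3), with a log2FC of 0.59 ± 0.27 (SE; adjusted p = 0.446). RBBP5, of the same core, was at 1.27 ± 0.62 (adjusted p = 0.495) and the acetyltransferase EP300 at 0.93 ± 0.58 (adjusted p = 0.631). Both were highest in siFLI1 replicate 3, and without that library RBBP5 was at 0.60 and EP300 at 0.26. KDM6A was the 1 H3K27 demethylase gene tested, at 0.17 ± 0.54 (adjusted p = 0.944).

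Ratios of paralogous subunits within a library do not depend on how libraries are scaled, and 6 pairs were compared. The log2 ratio of HDAC2 to HDAC1 counts averaged 0.71 ± 0.34 in siFLI1 and 0.80 ± 0.57 in siControl (SD, n = 3). That of ARID1A to ARID1B averaged −0.72 ± 0.47 in siFLI1 and −0.27 ± 0.55 in siControl, a difference of −0.45 and the smallest p of the 6 (two-sided exact permutation p = 0.3, adjusted p = 1 over 6 pairs). The difference was −0.67 for EZH2 to EZH1, 0.26 for SMARCC1 to SMARCC2, 0.28 for CHD4 to CHD3 and −0.31 for SMARCA4 to SMARCA2. Some ratios rest on few counts, where the 0.5 added to each count matters. EZH1 had from 1 to 35 counts a library, and SMARCC2 had 1 count in siFLI1 replicate 3. There the log2 ratio of SMARCC1 to SMARCC2 was 2.12, against 0.12 and −0.12 in siFLI1 replicates 1 and 2. The groups overlapped for all 6 pairs, and in 5 of them, all but ARID1A to ARID1B, the sign turned when 1 library was left out.

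**Figure D4:**
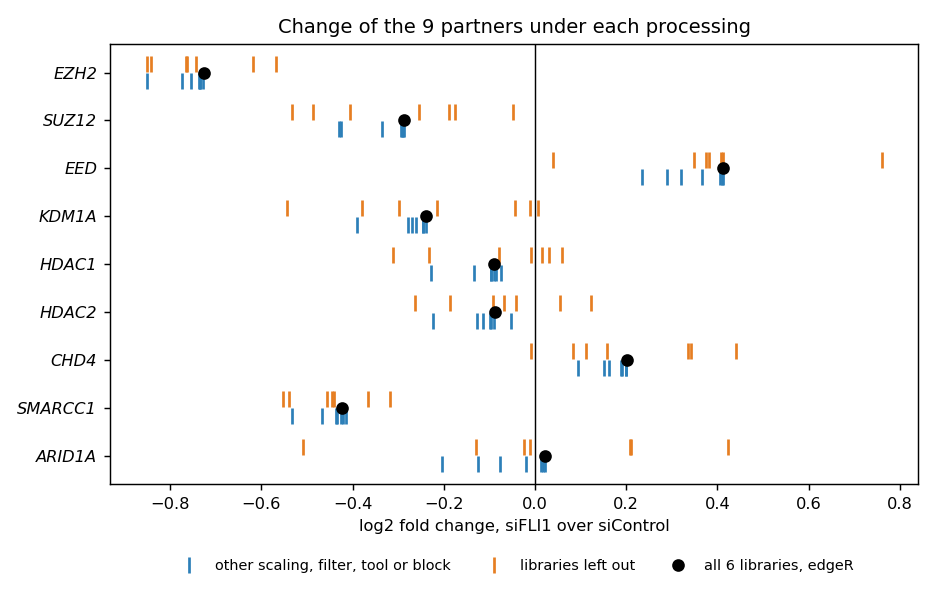
Log2 fold change of siFLI1 over siControl (horizontal axis) of each partner. Black dots are all 6 libraries in edgeR, orange ticks are fits with 1 or 2 libraries left out, and blue ticks are other scaling, filters, tools or the replicate block. EZH2 and SMARCC1 stay below 0 throughout, EZH2 between −0.85 and −0.57, and ARID1A falls on both sides of 0.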

How the data were processed

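RNA of A673 cells was sequenced in 6 bulk MARS-seq libraries, per the labels' protocols. The authors deposited a table of raw counts over the exons of 1 RefSeq transcript for each gene. The submitters' processing notes name bcl2fastq, HISAT 0.1.5, HOMER and hg38. The sources used here do not state whether barcodes were collapsed or strand was used. PCR copies may therefore be counted, and genes that overlap on either strand may share reads. Coordinates are those of the table.

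Low genes were removed with edgeR's filterByExpr (minimum count 10, minimum total 15) and tested in R 4.3.3 with edgeR 4.0.16 (TMM, glmQLFit with robust=TRUE, glmQLFTest, two-sided, group as the 1 term), with Benjamini-Hochberg adjustment over 9420 genes and a threshold of 0.05. SE and 95% intervals come from the quasi-likelihood F statistic. Alternatives were DESeq2 1.42.0, limma-voom (limma 3.58.1), other scalings and filters, the replicate block and libraries left out. Paralog ratios had 0.5 added to each count.

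Separate cultures are not stated in the labels, so the spread behind the p-values may be technical. No pair of libraries within a group was alike within counting error (lowest chi-square per degree of freedom 6.78). Partners and lists were chosen with earlier results of these data known. Named were the 9 partners, FLI1, LOX, TGFBR2, paralogs, and of each list any gene past the threshold, the 3 smallest p and the highest mean CPM, and the 3 genes most like EZH2. RBBP4 and RBBP7 are in both the PRC2 and the NuRD list, and BCL11B is in the BAF and the Ewing sarcoma list. The mitochondrially encoded genes were not analysed here, and 1 chromatin gene is not reported here. Older symbols of EZHIP, BICRA and BICRAL were matched through RefSeq synonyms.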

Additional observations from a re-analysis of the deposited data

How the results depend on the processing

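None of the 9 partners and none of the 100 other listed chromatin genes was called in any of the 14 alternatives, and the proliferation list had 1 call, MCM4, with no low-count filter. EZH2, SUZ12, EED and SMARCC1 kept their sign throughout. ARID1A turned to −0.13 under total counts, −0.019 with no low-count filter, −0.20 in limma-voom and −0.078 with the replicate block. Without siFLI1 replicate 3 and siControl replicate 1, KDM1A was at 0.0061, HDAC1 at 0.016, HDAC2 at 0.12, MTA1 at 0.067, ACTL6A at −0.30, BRD3 at −0.069, EP300 at −0.10, KDM6A at −0.32 and SMARCA2 at −1.16. Under total counts, which moved the median of all genes to −0.12, EZH2 was at −0.85, PCGF3 at −0.027, BRD3 at −0.045 and SMARCA4 at −0.0084, and in limma-voom BRD3 was at −0.050 and SMARCA2 at −0.13. The cause of these turns was not tested.

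Over the fits without 1 library, SUZ12 ran from −0.53 to −0.048, KDM1A from −0.54 to −0.011, RBBP5 from 0.60 to 1.66, EP300 from 0.26 to 1.495, RBBP7 from 0.045 to 0.69, HDAC1 from −0.31 to 0.059, HDAC2 from −0.26 to 0.054, CHD4 from −0.0080 to 0.44, ARID1A from −0.51 to 0.42, PCGF3 from −0.16 to 0.40, BRD3 from −0.25 to 0.44, ACTL6A from −0.077 to 0.64, KDM6A from −0.10 to 0.55, SMARCA2 from −0.71 to 1.27 and MTA1 from −1.15 to 0.14. The ratio differences ran from −1.70 to 0.079 for EZH2 to EZH1, −0.36 to 0.21 for HDAC2 to HDAC1, −0.44 to 0.67 for SMARCC1 to SMARCC2, −0.14 to 0.69 for CHD4 to CHD3 and −0.95 to 0.57 for SMARCA4 to SMARCA2.

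Over all genes, calls higher and lower numbered 306 and 62 with no low-count filter, 98 and 17 under total counts, 183 and 34 in DESeq2, and 161 and 32 without siFLI1 replicate 3 and siControl replicate 1. Without 1 library they ran from 64 to 121 and from 1 to 7. The replicate block gave 99 and 2, with EZH2 at −0.74. Deviations of same-numbered libraries had correlations from −0.035 to −0.0055, and no library correlated best with its own number. The labels do not state that the numbers pair the libraries. With 3 libraries a group these correlations cannot settle it. Depth limits 8 of the 9 partners, all but CHD4, in siFLI1 replicate 3, where each had fewer than 30 counts.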
